A study of Mus musculus with 12 samples.

Results

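The genes described here carry dietary fat out of the absorptive cells of the gut. They were chosen by name: of 10 genes of chylomicron assembly, 9 (Fabp2, Mogat2, Dgat1, Dgat2, Apob, Mttp, Apoa1, Apoa4 and Apoc3) had 1 probe set each that the platform annotation gives to that gene alone, out of 21408 genes so named. No such probe set was found for Apoc2, the cofactor of lipoprotein lipase, and it is not analysed here. The recipients were wild-type BALB/c mice that had been irradiated over the total body and then given T cells and bone marrow of C57BL/6N donors, an allogeneic transplant that models graft-versus-host disease. Their small intestine was taken for RNA on day 14. The 6 mice of the TUDCA group received 200 mg/kg of tauroursodeoxycholic acid, a taurine-conjugated bile acid, by intraperitoneal injection each day. The 6 mice of the vehicle group received the same volume of 200 µl without it. Every mouse was transplanted, so a gut without transplantation is not among the groups.

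Absorptive enterocytes take up fatty acids and monoacylglycerol from the lumen and rebuild them into triglyceride at the membrane of the endoplasmic reticulum. The microsomal triglyceride transfer protein loads this triglyceride onto apolipoprotein B as that very large protein is made, and smaller apolipoproteins join the surface of the particle. The finished chylomicron leaves through the Golgi and enters the lymph.

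Of these 9 genes only Apob fell past the threshold, by 0.53 on the log2 scale, to 0.693 of the vehicle level. Apoa1 had a difference of −0.24 that lay next to the threshold (adjusted p = 0.0525). The lipid-binding, lipid-synthesis and lipid-transfer genes Fabp2, Mogat2, Dgat1, Dgat2 and Mttp had differences between −0.17 and −0.11, and none of them passed. Apoa4 and Apoc3, neighbours of Apoa1 in the genome, had the widest spread between TUDCA mice of the 9 genes (SD of 0.34 each), with differences of 0.16 and −0.09. In all, 1 of 9 passed in either direction, against 2.52% of all 23991 probe sets. The median difference of the 9 genes was −0.14, and that of all probe sets was 0.01. The groups lay fully apart for 0 of 9, against 1.98% of all probe sets (1.18% with TUDCA lower).

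A difference is TUDCA minus vehicle on the log2 scale of the deposited values, estimated in limma within the ranges of sample numbers given in the labels. There is a low range of numbers, with 2 TUDCA and 4 vehicle mice, and a high range, with 4 TUDCA and 2 vehicle mice. What the ranges stand for is not stated. The threshold is a Benjamini-Hochberg adjusted p of 0.05 over all probe sets. Arrays are taken as separate mice, which the labels do not state further, so p-values measure the spread between these samples, and the number of arrays limits their precision. The arrays correlated with each other at 0.984 to 0.993. Over all probe sets 241 were higher and 364 lower, and with every array centred on 10 epithelial genes the split was 87 and 439.

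The description field of the labels names a reticular stromal cell, while the source and tissue fields give small intestine. Epcam, an epithelial adhesion gene, had log2 values of 12.04 ± 0.09 under TUDCA and 12.12 ± 0.07 under vehicle (SD, n = 6 each). Of 10 marker genes of reticular stroma 0 passed the test in limma, against 2.52% of all probe sets. They had a median difference of 0.00 and list means from 7.15 to 7.56 under TUDCA and from 7.30 to 7.54 under vehicle. The labels do not give the segment of the small intestine. Fabp6 and Slc10a2, bile acid genes of the ileum, averaged 12.89 and 11.10 under TUDCA and 12.99 and 11.08 under vehicle. Fabp1 and Lct, genes of the upper small intestine, averaged 5.15 and 5.17 under TUDCA and 5.53 and 5.34 under vehicle. List means of 8 ileal markers ran from 9.63 to 10.25 under TUDCA and from 10.11 to 10.53 under vehicle. Those of 10 upper markers ran from 5.53 to 5.84 under TUDCA and from 5.71 to 5.95 under vehicle. Single markers varied: Slc40a1 of the upper list averaged 7.20 under TUDCA and 7.88 under vehicle, and Nr1i3 of the ileal list 6.14 and 5.95.

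Apolipoprotein B is the scaffold of the chylomicron, with one molecule in each particle. The 250 bases before the start of its gene are shown because it is the member that passed the test. Those of Apoa1 and Apoa4 are shown because these neighbouring genes gave differences of opposite sign, though neither passed. The sequences are from RefSeq on GRCm38.p6, read 5′ to 3′ toward the gene. Capitals mark a TATA box (TATAAA) or the core of an element bound by hepatocyte nuclear factor 4 (CAAAGNNCA), searched on both strands.
Apob, chr12:7977427-7977676, plus strand: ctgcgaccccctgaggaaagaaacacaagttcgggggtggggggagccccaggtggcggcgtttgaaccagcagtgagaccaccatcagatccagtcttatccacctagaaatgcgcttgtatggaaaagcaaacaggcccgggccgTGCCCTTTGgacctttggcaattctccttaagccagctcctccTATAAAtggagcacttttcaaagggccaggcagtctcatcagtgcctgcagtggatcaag
Apoa1, chr9:46228380-46228629, plus strand: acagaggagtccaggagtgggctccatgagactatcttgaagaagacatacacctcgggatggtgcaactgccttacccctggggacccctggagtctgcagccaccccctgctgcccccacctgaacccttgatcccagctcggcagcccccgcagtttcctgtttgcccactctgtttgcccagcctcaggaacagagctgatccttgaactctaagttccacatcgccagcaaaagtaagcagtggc
Apoa4, chr9:46240594-46240843, plus strand: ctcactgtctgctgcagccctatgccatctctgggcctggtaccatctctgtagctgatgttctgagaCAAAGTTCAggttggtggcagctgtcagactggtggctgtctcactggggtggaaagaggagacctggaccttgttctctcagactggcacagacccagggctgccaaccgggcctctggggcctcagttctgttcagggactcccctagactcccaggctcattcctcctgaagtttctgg
Promoters were in the table for 6 of the 10 genes. The CAAAGNNCA core was present before Apob, Apoa4 and Fabp2, that is in 3 of 6, against 5.49% of all 32851 promoter windows of this length. In Fabp2 the core lay on the opposite strand, 137 bases before the start, where the strand read toward the gene shows TGCACTTTG. TATAAA was present before Apob alone of the 6, against 12.4% of all windows. The core before Apob began 103 bases and the TATA box 60 bases from the start, and the matches did not overlap. A search for the GATA motif AGATAA found it in 0 of 6 (9.99% of all windows), and GTTAAT, part of the element of hepatocyte nuclear factor 1, was found only before Apoc2 (6.43% of all windows). The motifs were chosen after the sequences had been read, and a match describes letters and not binding.

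Apob had log2 values with a lowest, median and highest of 12.20, 12.48 and 12.87 under TUDCA, against 12.78, 12.98 and 13.07 under vehicle. The groups overlapped only through TUDCA replicate 3, the highest of its group, which lay above vehicle replicate 1, the lowest of its own. All 6 TUDCA mice lay below the vehicle mean of their number range. The means were 12.49 ± 0.22 under TUDCA and 12.96 ± 0.11 under vehicle (SD, n = 6 each), and the difference was −0.53 ± 0.08 (SE, adjusted p = 0.00403 in limma, 95% interval −0.71 to −0.35). The gene was lower in each range, by a difference of −0.62 in the low and −0.44 in the high range. In the high range alone, with 2 vehicle mice, the adjusted p was 0.299. The call stood whichever array was left out, with differences from −0.58 to −0.46.

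Mttp encodes the transfer protein that lipidates apolipoprotein B. Its log2 values had a lowest, median and highest of 11.12, 11.17 and 11.27 under TUDCA, against 11.22, 11.32 and 11.41 under vehicle. The groups overlapped through TUDCA replicates 1 and 4, which lay above the lowest vehicle mice, replicates 3 and 1. The difference was −0.14 ± 0.05 (SE, adjusted p = 0.249 in limma, 95% interval −0.25 to −0.02). All 6 TUDCA mice lay below the vehicle mean of their range.

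The change of Apob was set beside that of each other member by taking the difference of the log2 values within each array. Relative to Mttp, Apob lay at 1.31 ± 0.24 under TUDCA and 1.65 ± 0.12 under vehicle (SD, n = 6 each), a change of −0.39 within the number ranges. Relative to the other members the change ran from −0.69 (Apoa4) to −0.29 (Apoa1). Apob was set against the others because its own difference was the most negative of the 9, so these values are a description with no test, and they all share the Apob values. The within-array differences of the groups overlapped in every pair.

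**Figure D1:**
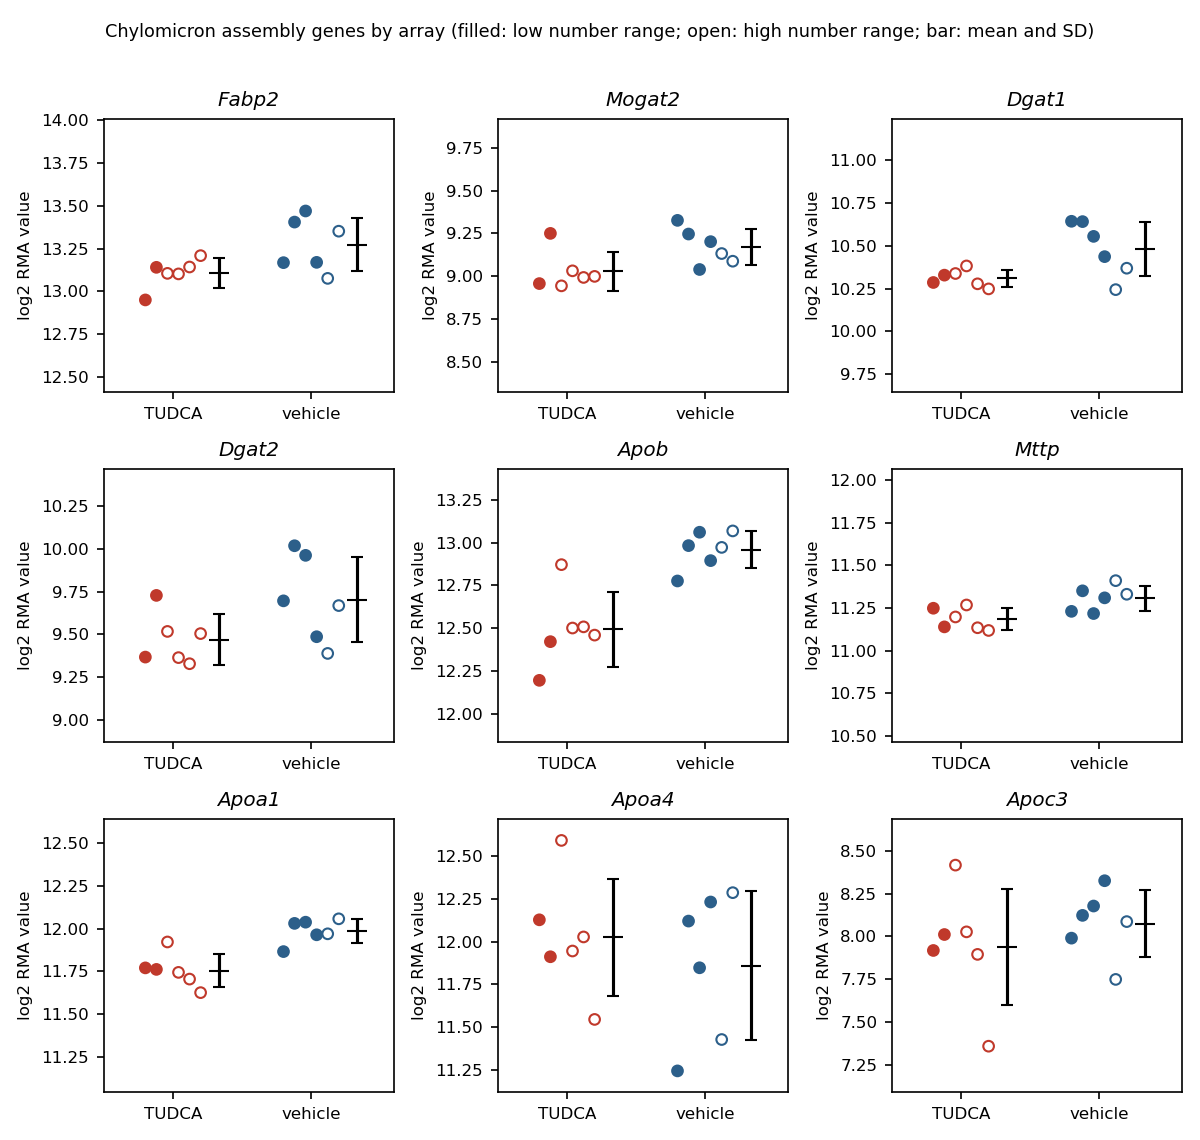
Log2 RMA value of each gene (vertical axis) on the 12 arrays, TUDCA at the left and vehicle at the right of each panel. Filled points are mice of the low and open points mice of the high number range, bars give mean and SD, and every panel spans the same height. Apob averages 12.49 under TUDCA and 12.96 under vehicle, and Apoa4 spreads from 11.54 to 12.59 under TUDCA and from 11.24 to 12.29 under vehicle.

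Apoa1 encodes the main protein of high density lipoprotein and is also carried on new chylomicrons. Its log2 values had a lowest, median and highest of 11.63, 11.75 and 11.92 under TUDCA, against 11.87, 12.0003 and 12.06 under vehicle. As for Apob, the groups overlapped through TUDCA replicate 3 and vehicle replicate 1. Here too each of the 6 TUDCA mice lay below the vehicle mean of its range. The difference was −0.24 ± 0.06 (SE, adjusted p = 0.0525 in limma, 95% interval −0.36 to −0.11), with −0.21 in the low and −0.26 in the high range. Apoa1 passed the threshold under 6 of 24 alternatives, among them array weights (−0.25, adjusted p = 0.0166), the omission of TUDCA replicate 3 (−0.26, adjusted p = 0.0181) and that of vehicle replicate 1 (−0.26, adjusted p = 0.0445). By contrast, renewed quantile normalisation gave −0.15 (adjusted p = 0.257). Its adjusted p lay between 0.0166 and 0.428 over all of them.

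Apoa4 encodes an apolipoprotein of the gut that is secreted with chylomicrons in response to fat. Its log2 values had a lowest, median and highest of 11.54, 11.99 and 12.59 under TUDCA, against 11.24, 11.98 and 12.29 under vehicle. The medians of the groups were nearly equal, and the lowest mice were vehicle replicates 1 and 5 and TUDCA replicate 6. The difference was 0.16 ± 0.20 (SE, adjusted p = 0.787 in limma, 95% interval −0.27 to 0.60), so changes in either direction lie within the interval. Leaving out single arrays moved it from 0.0022, without vehicle replicate 5, to 0.32, without vehicle replicate 6.

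Apoc3 encodes an inhibitor of lipoprotein lipase and of particle clearance. Its log2 values had a lowest, median and highest of 7.36, 7.96 and 8.42 under TUDCA, against 7.75, 8.10 and 8.33 under vehicle. TUDCA mice held both the lowest value, in replicate 6, and the highest, in replicate 3. The difference was −0.09 ± 0.14 (SE, adjusted p = 0.841 in limma, 95% interval −0.40 to 0.22), with −0.19 in the low and 0.0065 in the high range. In the RefSeq annotation Apoa1, Apoc3, Apoa4 and Apoa5 follow each other on chromosome 9. Within arrays, the change of Apoa4 minus that of Apoa1 was 0.40, that of Apoc3 minus Apoa1 was 0.14 and that of Apoa4 minus Apoc3 was 0.26. These pairs were chosen after the values had been seen, and the values are given with no test. Apoa5, the fourth gene of the row, had a difference of −0.11 ± 0.12 (SE, adjusted p = 0.745 in limma).

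**Figure D2:**
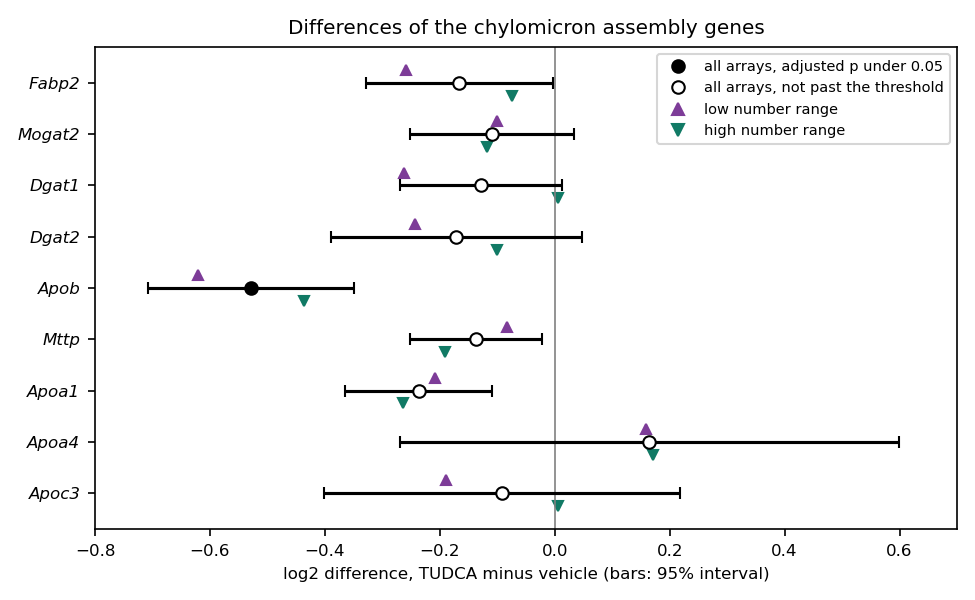
Log2 difference of each gene, TUDCA minus vehicle (horizontal axis), from all 12 arrays with its 95% interval, and within the low and high number ranges as triangles. The filled point, Apob at −0.53, is past the adjusted p of 0.05, and Apoa4 at 0.16 is the only gene to the right of 0 over all arrays.

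Fabp2, the intestinal fatty acid binding protein, ferries fatty acids through the cytosol of enterocytes. Its log2 values had a lowest, median and highest of 12.95, 13.12 and 13.21 under TUDCA, against 13.08, 13.26 and 13.47 under vehicle. The TUDCA mice lay within the lower part of the vehicle range or below it. The difference was −0.17 ± 0.08 (SE, adjusted p = 0.342 in limma, 95% interval −0.33 to −0.0036), with −0.26 in the low and −0.07 in the high range. All 6 TUDCA mice lay below the vehicle mean of their range. The 99th percentile of all log2 values was 11.10, and whether brightness near the top of the scale compressed the differences of Fabp2, Apob, Mttp, Apoa1 and Apoa4 was not tested.

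Mogat2 encodes the acyltransferase that makes diacylglycerol from absorbed monoacylglycerol, the main route in the gut. Its log2 values had a lowest, median and highest of 8.94, 8.99 and 9.25 under TUDCA, against 9.04, 9.17 and 9.33 under vehicle. Of the TUDCA mice 1, replicate 2, stood among the higher vehicle mice, and the others lay below the lowest of them. The difference was −0.11 ± 0.07 (SE, adjusted p = 0.51 in limma, 95% interval −0.25 to 0.03), with −0.10 in the low and −0.12 in the high range.

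Dgat1 and Dgat2 encode the unrelated enzymes that add the last fatty acid to make triglyceride. Dgat1 had log2 values with a lowest, median and highest of 10.25, 10.31 and 10.38 under TUDCA, against 10.24, 10.50 and 10.64 under vehicle. The vehicle mice split by number range, with a mean of 10.57 in the low and 10.31 in the high range, while TUDCA mice averaged 10.31 in each. Its difference was −0.13 ± 0.07 (SE, adjusted p = 0.406 in limma, 95% interval −0.27 to 0.01), with −0.26 in the low and 0.0052 in the high range. Dgat2 had log2 values with a lowest, median and highest of 9.33, 9.44 and 9.73 under TUDCA, against 9.39, 9.68 and 10.02 under vehicle. The groups overlapped widely, with vehicle replicate 5 among the lowest mice, though all 6 TUDCA mice lay below the vehicle mean of their range. That held for 5 of the 9 genes. The difference of Dgat2 was −0.17 ± 0.10 (SE, adjusted p = 0.494 in limma, 95% interval −0.39 to 0.05). Dgat2 and Mogat2, which belong to the same enzyme family, are neighbours on chromosome 7 in the RefSeq annotation.

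Whether the change differed between number ranges was tested with an interaction term. For the 9 genes the adjusted p lay between 0.611 (Dgat1) and 0.997 (Apoa4) in limma. Over all probe sets 0 passed (0% called), with 1843 (7.68%) at an unadjusted p under 0.05, so the test called no gene anywhere. For 6 of the 9 genes the difference was negative in both ranges, and for Apoa4 it was 0.16 in the low and 0.17 in the high range.

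Across the 12 mice Apob and Apoa1 followed each other (Pearson r = 0.898, adjusted p = 0.009, and Spearman rho = 0.881, adjusted p = 0.0126, by permutation over 36 gene pairs). Without the 2 mice farthest from the median of Apob, r was 0.985. Since both genes were lower under TUDCA, this value contains the group difference. Within the groups r was 0.579 under TUDCA and 0.959 under vehicle (n = 6 each), where the 6 vehicle mice had the same order for both genes. Without the 2 mice farthest from the median of Apob in each group, r was −0.104 under TUDCA and 0.809 under vehicle. The vehicle value had an adjusted p = 0.1 by exact permutation over 72 tests within groups.

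Dgat2 and Fabp2 were the next pair across the 12 mice (Pearson r = 0.833, adjusted p = 0.0184 by permutation). Their Spearman rho of 0.664 did not pass (adjusted p = 0.211 by permutation), and r was 0.57 without the 2 mice farthest from the median of Dgat2. The values over 12 mice contain the group differences, which were negative for both genes. Within the groups their r was 0.367 under TUDCA and 0.891 under vehicle (adjusted p = 0.736 and 0.45 by exact permutation, n = 6 each). Apoa4 and Apoc3 had r = 0.663 and rho = 0.615 (adjusted p = 0.108 and 0.228 by permutation), with r = 0.916 under TUDCA and 0.712 under vehicle. The TUDCA value rests on replicates 3 and 6, since without them r was −0.807. Without the 2 vehicle mice farthest from the median of Apoa4, the vehicle r was 0.022. Over all 36 pairs r ran from −0.405 to 0.898 with a median of 0.38, and 33 were above 0.

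**Figure D3:**
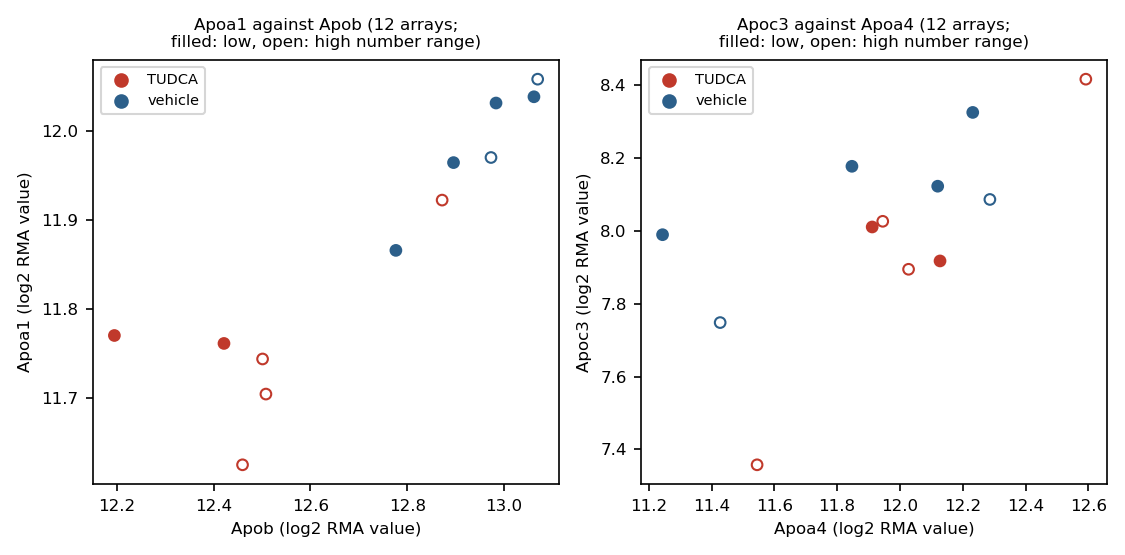
Log2 RMA values of Apoa1 against Apob (left) and of Apoc3 against Apoa4 (right) on the 12 arrays, TUDCA in red and vehicle in blue, with filled points for the low and open points for the high number range. At the left the vehicle mice lie along a line from 12.78 to 13.07 for Apob, and TUDCA replicate 3 at 12.87 lies among them.

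The genes whose values ran most like the mean centred value of the 9 genes over the 12 arrays were found among single-gene probe sets with a mean at or above the median. The closest were Ing4 (r = 0.968), a chromatin reader, Slc17a4 (r = 0.948), an anion transporter of the gut, and Dennd5b (r = 0.938), which is needed in mice for secretion of chylomicrons. Gdf10, Nr6a1, Itga1, Plekhm3 and Macf1 followed, with r from 0.903 to 0.932. None of these 8 genes passed the test between the groups, with Plekhm3 having the lowest adjusted p of the 8, at 0.0799 in limma. The 8 were chosen as the highest of all, so their r is a description.

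Around these steps, 110 of 126 further genes were measured in 8 wider lists, from fatty acid uptake to clearance of particles. Of these 110 genes 1 rose and 4 fell, against 1% of all probe sets that rose and 1.52% that fell. Without TUDCA replicate 1, 0 rose and 1 fell, and without vehicle replicate 6, 2 fell. Their median difference was −0.02. Apol7a, of the apolipoprotein L family, fell by 0.88, with log2 means of 8.51 ± 0.38 under TUDCA and 9.34 ± 0.13 under vehicle (SD, n = 6 each). The groups did not overlap, with 9.04 the highest TUDCA and 9.16 the lowest vehicle value (adjusted p = 0.00452 in limma; 1.98% of all probe sets had groups that did not overlap). Of 9 measured genes in the list of other apolipoproteins it was the only one past the threshold. Apoe, a ligand for uptake of remnants, had a difference of −0.0056 (adjusted p = 0.992), and Apom, a carrier of sphingosine phosphate, one of −0.14 (adjusted p = 0.49).

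The differences of 10 measured genes of particle assembly ran from −0.32 to 0.19 and those of 19 genes of export from −0.28 to 0.19, with list medians of −0.03 and 0.04. Of the 10 measured genes of assembly in the endoplasmic reticulum, 1 fell: Prap1, a lipid-binding protein that promotes triglyceride transfer, by 0.32, with 10.56 ± 0.07 under TUDCA and 10.88 ± 0.11 under vehicle (SD, n = 6 each; adjusted p = 0.0148 in limma). Its call ended without TUDCA replicate 1 or 2 or without vehicle replicate 6 (adjusted p up to 0.0778). Tm6sf2, which helps to load lipid onto the particle, had a difference of −0.22 ± 0.08 (SE, adjusted p = 0.213). Apobec1, the editing enzyme that gives the short intestinal form of apolipoprotein B, had one of 0.19 ± 0.09 (SE, adjusted p = 0.35). Of 19 genes of export 0 passed in limma (1% of all probe sets rose and 1.52% fell). The smallest p there was that of Mia2, a cargo receptor at exit sites (−0.28 ± 0.08 SE, adjusted p = 0.106), and Sar1b, the GTPase mutated in human chylomicron retention disease, had −0.04 ± 0.05 (SE, adjusted p = 0.803).

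In the lists of lipid supply, droplets and clearance the counts are set against 1% of all probe sets that rose and 1.52% that fell. Of 7 measured genes of fatty acid uptake, binding and activation and 14 of glycerolipid synthesis 0 passed in limma, with median differences of −0.07 and 0.03. The smallest p values were those of the acyl-CoA synthetase Acsl5 (0.15 ± 0.07 SE, adjusted p = 0.341) and the acyltransferase Agpat2 (0.19 ± 0.05 SE, adjusted p = 0.0779). Of 19 genes of lipid droplets and lipases 1 fell: Pnpla2, the adipose triglyceride lipase, by 0.33, with 9.04 ± 0.07 under TUDCA and 9.37 ± 0.10 under vehicle (SD, n = 6 each; adjusted p = 0.0144 in limma). Its groups did not overlap, as was so for 1.98% of all probe sets. Its call ended without TUDCA replicate 1 or vehicle replicate 6 (adjusted p of 0.0733 and 0.0607). Of 12 genes of particle clearance 0 passed, with Lipg, an endothelial lipase, at 0.45 ± 0.12 (SE, adjusted p = 0.0669).

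Of 20 measured transcription regulators 1 rose and 1 fell, against 1% and 1.52% of all probe sets. Pparg, a nuclear receptor of fatty acids, rose by a difference of 0.80 ± 0.17 (SE, adjusted p = 0.0248 in limma), with 7.56 ± 0.19 under TUDCA and 6.72 ± 0.44 under vehicle (SD, n = 6 each). Its call ended without TUDCA replicate 1 or vehicle replicate 5 (adjusted p of 0.104 and 0.0584). Ppargc1a, a coactivator of oxidative metabolism, fell by 0.39 (adjusted p = 0.0133 in limma), with log2 values from 7.97 to 8.64 under TUDCA and from 8.57 to 8.85 under vehicle. Its call ended without TUDCA replicate 1 (adjusted p = 0.0582) and without the number range term (adjusted p = 0.172). The hepatocyte nuclear factors Hnf4a and Hnf4g had differences of −0.04 ± 0.07 (SE, adjusted p = 0.868) and −0.22 ± 0.06 (SE, adjusted p = 0.0705). Creb3l3, an activator of Apoa4 and other apolipoprotein genes, had one of 0.10 ± 0.14 (SE, adjusted p = 0.817).

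**Figure D4:**
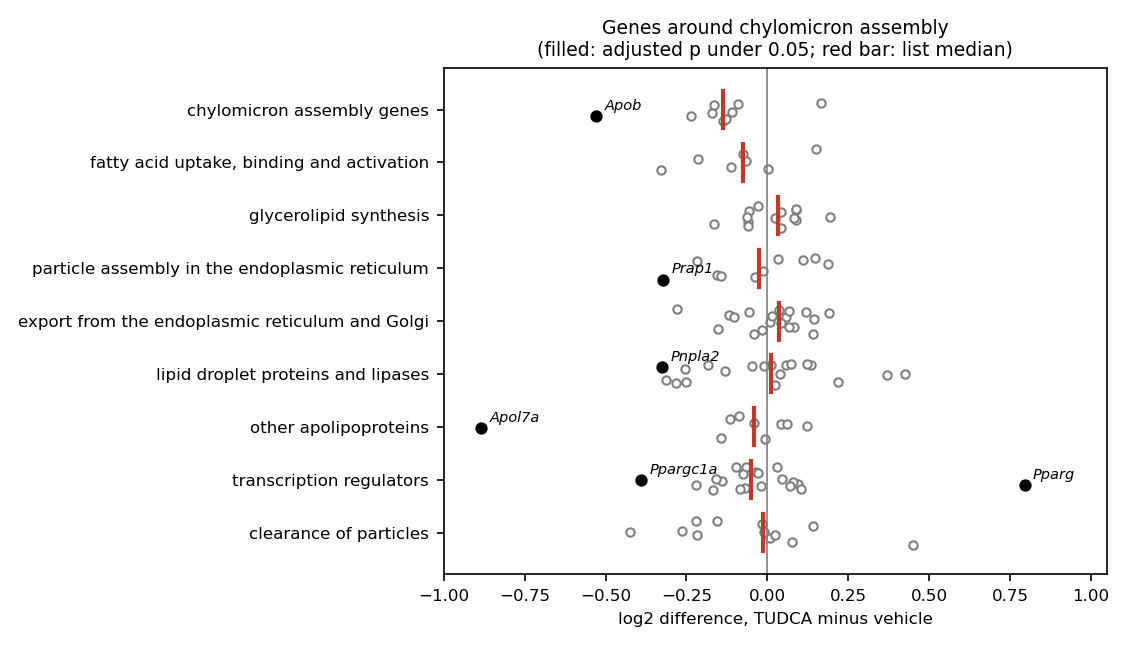
Log2 difference, TUDCA minus vehicle (horizontal axis), of each measured gene in the 9 chylomicron assembly genes and in 8 lists around them, with filled named points past the adjusted p of 0.05 and a red bar at each list median. The medians lie between −0.14 for the chylomicron assembly genes and 0.04 for export from the endoplasmic reticulum and Golgi.

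In bulk tissue, fewer cells of a type and less RNA per cell cannot be told apart. Of 16 markers of absorptive enterocytes 4 fell (Mep1a, Anpep, Cdhr2 and Cdhr5), 0 rose and 12 did not pass, against 1.52% of all probe sets that fell and 1% that rose. They had a median difference of −0.16 and list means from 10.73 to 10.96 under TUDCA and from 10.92 to 11.06 under vehicle. Of the 12, 4 had positive differences: Sis (0.11), Krt20 (0.15), Rbp2 (0.06) and Tmigd1 (0.05). Vil1, the villus actin-bundling protein, had −0.11 (adjusted p = 0.337). Of 10 epithelial genes common to all gut epithelium 1 rose (Krt8), with list means from 10.48 to 10.83 under TUDCA and from 10.53 to 10.63 under vehicle. With arrays centred on these, Apob was lower by a difference of −0.62 (adjusted p = 0.00479 in limma). The same centring lowered the differences of all probe sets together, with their median moving from 0.01 to −0.08.

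Of 8 goblet cell markers 3 rose, against 1% of all probe sets, with list means from 11.26 to 11.66 under TUDCA and from 10.78 to 11.33 under vehicle. Of 9 T and NK cell markers 4 fell, against 1.52% of all probe sets, with list means from 5.81 to 7.13 under TUDCA and from 6.87 to 7.69 under vehicle. The part of these cell types in the differences of Apob and the other members was not tested. Hepatocytes also make several of these proteins. The list means of their 10 markers ran from 5.61 to 6.46 under TUDCA and from 5.52 to 6.10 under vehicle. Of the 10 markers 4 lay below a log2 value of 5 on average. Among them were Fga and Fgb at 4.16 and 3.62 under TUDCA and 4.15 and 3.58 under vehicle. Ttr was the only hepatocyte marker past the threshold, with 6.88 ± 0.21 under TUDCA and 6.59 ± 0.18 under vehicle (SD, n = 6 each; adjusted p = 0.0319 in limma), and Alb reached 6.53 in 1 TUDCA mouse against a vehicle highest of 4.87.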

How the data were processed

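Total RNA from small intestine was labelled with the Affymetrix WT Pico kit and hybridised to arrays, per the labels' protocols. The values as deposited are on the log2 scale, 1 for each probe set on each array, and oligo and RMA are named in the submitters' processing notes (versions not given in the sources used here). RMA corrects background, normalises by quantiles and summarises probes, so a shift of all transcripts together would not be seen. No detection calls or scanner files were used here. Of 23991 probe sets 21557 name 1 gene in the platform annotation, 787 several and 1647 none, and all were tested.

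A linear model with treatment and number range as terms was fitted to every probe set (R 4.3.3, limma 3.58.1, empirical Bayes with a variance trend, two-sided). The fit was tested on simulated data. Within-array differences of gene pairs were added after the data had been seen. Genes with several probe sets were read at the brightest. The members, lists and tests were chosen with earlier results of these data known. Named were all members, each gene of the 8 wider lists past the threshold, otherwise up to 2 with the smallest p, and the 8 genes most like the members. Other list genes were named after their values were seen. Marker lists are described by counts, medians or list means, and single marker genes were also named after their values were seen. Alternatives were 12 settings and the omission of each of 12 arrays.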

Additional observations from a re-analysis of the deposited data

Results flagged for a closer look

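Mogat2 in TUDCA replicate 2 lay apart from the rest of its group. Its log2 value was 9.25 and that of the next TUDCA mouse 9.03, a gap of 0.714 of the range of the group, above Dixon's 95% critical value for 6 samples. Without this mouse the difference of Mogat2 was −0.17 (adjusted p = 0.331 in limma), against −0.11 with it. The test was made in 18 sets of 6 arrays (9 genes in 2 groups), and chance alone would mark about 1 in 20.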

How the results depend on the processing

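Over 24 alternatives 216 values of the 9 genes were computed, of which 207 kept their direction and their side of the threshold. Apob lost its call in the high number range alone, and Apoa1 gained a call in 6. The differences of Apoc3 (0.0065) and Dgat1 (0.0052) changed sign in the high range alone. The count of chylomicron assembly genes lower under TUDCA was 2 without the number range term, without probe sets dimmer than the median, with pan-epithelial centring and with array weights, and 0 in the high range alone. It lay between 1 and 2 when single arrays were left out. None was called higher under any alternative. Of the wider genes, 3 were higher with array weights and without dim probe sets and 2 after renewed quantile normalisation. The count higher was 0 with pan-epithelial centring, in either range alone and with the replicate block plus number range. The count lower was 0 in the high range alone and 1 with that block. Without single arrays 0 to 2 were higher and 1 to 5 lower. Over all probe sets, array weights called 436 higher, pan-epithelial centring 87, the high range alone 6 higher and 3 lower, and the replicate block with the number range 85 higher and 190 lower. Without single arrays the counts were 91 to 292 higher and 151 to 417 lower, with over 1.5 times fewer in both directions without TUDCA replicate 1 or 2 or vehicle replicate 6, and over 1.5 times fewer higher (157 at most) without vehicle replicate 2 or 3. Of the 5 wider genes called, the high range alone ended all 5 calls, and the replicate block with the number range ended those of Prap1, Pnpla2, Pparg and Ppargc1a but not that of Apol7a. The low range alone ended those of Pnpla2 (adjusted p = 0.209) and Pparg (0.15), pan-epithelial centring that of Pparg (0.0607), and the replicate block alone that of Ppargc1a (0.159). A single range also holds fewer arrays, and the cause of these changes was not tested.

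The replicate numbers do not pair mice by the labels. Deviations of same-numbered mice correlated from −0.06 to 0.261, over 0.1 in 3 of 6 pairs, and 4 of 6 TUDCA mice matched their own number best. These deviations were taken from the group mean alone. Replicates 1, 2, 5 and 6 lie in the same number range in both groups, so their correlations can contain differences between the ranges. With the replicate block and the number range Apob was at −0.55 (adjusted p = 0.0086), and with the block alone at −0.47 (adjusted p = 0.00391). Arrays carry no detection calls here, so signal over background could not be judged.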

Other observations

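Genes with a known place along the villus were read beside Apoa4, which is highest near the villus tip in mice. Of 7 markers of the villus tip 1 fell and 1 rose, with a list median of −0.23 and 5 of 7 negative. Slc28a2, a nucleoside transporter, fell by 0.90, with log2 means of 7.37 ± 0.43 under TUDCA and 8.20 ± 0.38 under vehicle (SD, n = 6 each; adjusted p = 0.0297 in limma). Pmp22, a membrane protein, rose by a difference of 0.36 ± 0.07 (SE, adjusted p = 0.0173). Of 7 markers of the villus bottom 1 rose, the lectin Reg1, by a difference of 0.85 ± 0.13 (SE, adjusted p = 0.0027), at a low level of 4.86 ± 0.33 under TUDCA and 4.16 ± 0.32 under vehicle (SD, n = 6 each). The list median was −0.13, with 4 of 7 negative, and the lectins Reg3b and Reg3g had differences of −0.46 and −0.45 that did not pass (adjusted p = 0.223 and 0.197).

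Of 8 ileal markers 2 fell: Cubn, the receptor for intrinsic factor with vitamin B12, by 0.47 (adjusted p = 0.0254) and Mep1b, a meprin subunit, by 0.36 (adjusted p = 0.00171, both in limma). Fgf15, the hormone of ileal bile acid sensing, read at its brighter probe set, had 8.21 ± 1.46 under TUDCA and 9.66 ± 0.95 under vehicle (SD, n = 6 each), and did not pass (−1.06, adjusted p = 0.412). That difference combines 0.18 in the low and −2.30 in the high number range. Of 10 markers of the upper small intestine 0 passed in limma. For all of these genes 2.52% of probe sets passed in the table as a whole.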
